A study of Mus musculus with 36 samples.

Results

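The transcripts that set adipose tissue apart from liver and skeletal muscle were compared in young wild type mice, as the baseline of a study of mice with 1 Myc allele. Each of 3 tissues had been taken from the same 6 male C57Bl/6 wild type mice at 5 months of age, the RNA of the mice had been pooled by tissue, and each pool had been measured on 3 Affymetrix Mouse Gene 1.0 ST arrays. The comparison set the 3 adipose arrays against the mean of the liver mean (3 arrays) and the muscle mean (3 arrays). Every probe set with 1 gene symbol was a member, whatever its signal, which gave 21789 of the 35556 probe sets and 19938 genes. The other 3 cohorts were wild type mice at 24 months (5 mice), Myc+/- mice at 5 months (5 mice) and Myc+/- mice at 24 months (8 mice), each with 1 pool and 3 arrays per tissue. The fat depot and the muscle sampled are not given in the sources used here.

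Adipose tissue stores energy as triglyceride in adipocytes, each of which holds a large lipid droplet, and releases it as fatty acids and glycerol when hormones raise cyclic AMP. It is also an endocrine organ, and leptin and adiponectin are its best known hormones. Around the adipocytes lie blood vessels, fibroblast-like progenitors, matrix and resident macrophages, and visceral depots carry a mesothelial covering. Liver and muscle are the other main insulin-responsive tissues, so a gene high in fat may still be shared with either of them.

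All values are log2 signals after RMA, the background correction, quantile normalization and probe summary used for Affymetrix arrays, so a difference of 1 is a 2-fold difference. The 9 arrays had medians between 6.98 and 7.07, and arrays of the same pool correlated at 0.991 to 0.993 over all probe sets. The 3 arrays of a pool repeat 1 RNA pool, so their SD, standard error (SE) and p-values measure array error and not the spread between mice. The 9 pools of the other 3 cohorts came from other mice and served as the check above the array. Because whole tissue was pooled, fewer cells of a type and less RNA per cell cannot be told apart. No detection calls were used; the 95th percentile of 1210 olfactory and vomeronasal receptor probe sets, at 6.22 in adipose, 6.44 in liver and 6.16 in muscle, served as a mark of dim signal. A probe set was called when the limma adjusted p was under 0.05 over all 21789 and the difference was at least 2-fold.

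Adipose was higher than the mean of the 2 other tissues at 1489 probe sets (6.83% of those tested) and lower at 1315 (6.04%). More probe sets were at least 8-fold lower (255) than at least 8-fold higher (106), while over genes the extremes were 6.26 and -5.91. Against liver alone 2262 probe sets were higher (10.4%) and 1515 lower (6.95%), and against muscle alone 1507 were higher (6.92%) and 1483 lower (6.81%). The share of calls that were higher against liver depended on the scaling: it was 59.9% as deposited and 49.7% after each array was centred on its median, which shifted the difference of all genes from liver by -0.17. At the edge of the 2-fold rule, Glt8d1 at 1.0001 was called and Tfpi at 0.9996 was not, and on the other side Plk3 at -1.0003 was called and Fmo4 at -0.9999 was not.

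With 1 probe set per gene, 1387 genes were higher in adipose than the mean (6.96% of 19938) and 1202 were lower (6.03%). These shares are the reference for the counts of the gene lists below. Of the higher genes, 720 were called against both tissues, 506 against liver alone and 161 against muscle alone. Of the lower genes, 197 were called against both, 595 against liver alone and 410 against muscle alone. Most of the lower genes were thus called against 1 tissue only. By probe sets the calls against both were 768 higher (3.52%) and 221 lower (1.01%).

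**Figure D1:**
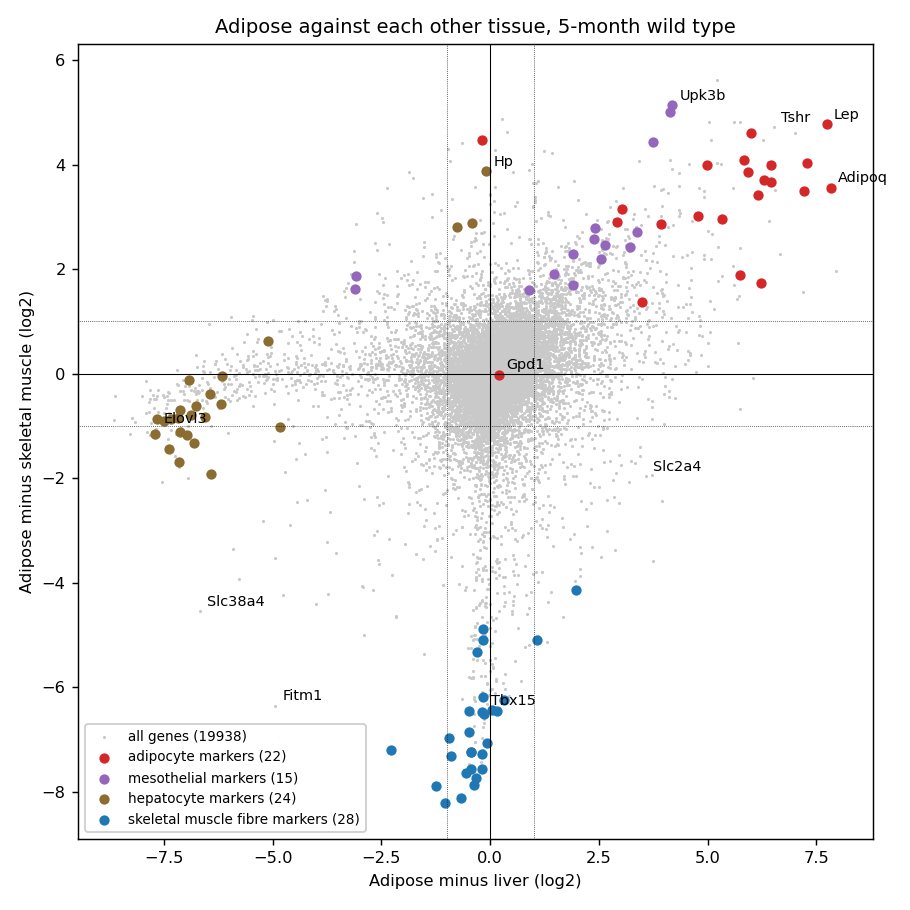
Each point is a gene, with the adipose minus liver difference (log2) on the horizontal axis and the adipose minus muscle difference (log2) on the vertical axis, from the 9 arrays of 5-month wild type tissue. Grey points are all 19938 genes and coloured points the 22 adipocyte, 15 mesothelial, 24 hepatocyte and 28 muscle fibre markers; dotted lines mark 2-fold. Adipocyte markers lie mostly in the upper right, hepatocyte markers to the left and muscle fibre markers at the bottom.

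The 20 genes named first were those called against both tissues with the largest excess over whichever tissue was closer. Lep, the gene for leptin, stood at 13.32, 13.34 and 13.36 on the adipose arrays, at 5.40, 5.99 and 5.42 on the liver arrays and at 8.64, 8.50 and 8.55 on the muscle arrays. The groups were far apart, and muscle lay above liver on every array. Lep was 214-fold higher in adipose than in liver and 27.4-fold higher than in muscle, a difference from the mean of 6.26 ± 0.10 (SE; limma adjusted p = 8.67e-20). In the other 3 cohorts the same difference ran from 4.73 to 6.27.

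Adipoq, the gene for adiponectin, had 13.89, 13.74 and 13.91 in adipose against 5.78, 6.37 and 5.89 in liver and 10.32, 10.20 and 10.35 in muscle. The liver arrays lay near the dim mark and the muscle arrays well above it. The differences were 7.83 from liver and 3.55 from muscle (SE 0.10 each). The same order, adipose over muscle over liver, was seen in the median of 22 adipocyte markers, which was 13.07 in adipose, 9.63 in muscle and 7.07 in liver. Whether adipocytes lying within the muscle samples contributed to the muscle signal was not tested.

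Of those 22 adipocyte markers, 21 were higher in adipose than the mean and none was lower, with a median difference of 4.64, against -0.02 for all genes. The same number, 21, was called against muscle, where the median difference was 3.53, and 20 were called against liver, where it was 5.88. The 1 marker not called was Gpd1, a cytosolic glycerol-3-phosphate dehydrogenase, with means of 11.85 in adipose, 11.65 in liver and 11.87 in muscle. These lists were drawn up with results of these arrays known and describe the arrays only.

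**Figure D2:**
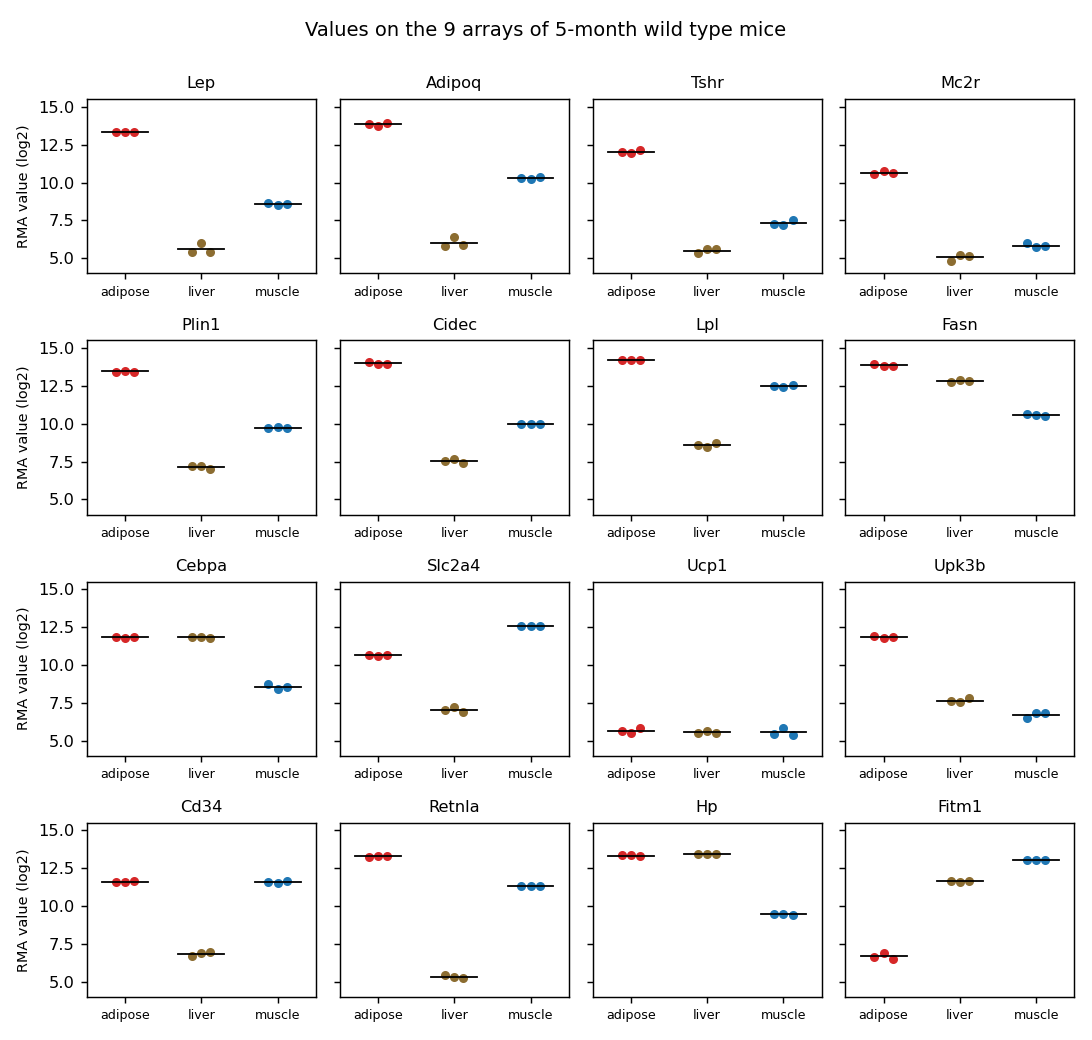
RMA value (log2) on each of the 9 arrays of 5-month wild type mice for 16 genes, with 3 points per tissue and the tissue mean as a line. Lep lies far above and Fitm1 far below both other tissues in adipose. Cebpa and Hp lie level in adipose and liver, Cd34 in adipose and muscle, and Ucp1 is low in all 3 tissues.

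Several of the 20 encode receptors or signalling proteins. Mc2r encodes the receptor for adrenocorticotropic hormone, which stimulates fat breakdown in rodents, and had 10.56, 10.79 and 10.62 in adipose, 4.84, 5.18 and 5.13 in liver and 5.98, 5.76 and 5.78 in muscle. Only adipose lay above the dim mark. Tshr, the thyrotropin receptor, had 11.99, 11.95 and 12.15 in adipose, with means of 5.50 in liver and 7.31 in muscle. Npr3, a clearance receptor for natriuretic peptides, had means of 13.22, 7.38 and 9.12 in adipose, liver and muscle. Prkar2b, a regulatory subunit of protein kinase A, was 129-fold higher than in liver and 24.5-fold higher than in muscle. Gnai1, an inhibitory G protein subunit, was 39.4-fold and 16.1-fold higher. Acvr1c, a receptor of the activin family also called ALK7, was 63.6-fold higher than in liver and 24.4-fold higher than in muscle.

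The other genes of the 20 fell into several kinds. Slc7a10, an amino acid transporter, was 31.5-fold higher than in liver and 15.9-fold higher than in muscle, and Car5b, a mitochondrial carbonic anhydrase, 33.5-fold and 22.2-fold. Rnase2a, a member of the eosinophil-type ribonucleases, had 10.50, 10.60 and 10.57 in adipose against means of 5.35 in liver and 4.94 in muscle. Hoxc8, a positional transcription factor, was 16.4-fold above muscle, Upk3b and Upk1b, uroplakins that mark mesothelium, 35.0-fold and 32.1-fold, and Sult1e1, an estrogen sulfotransferase, 22.3-fold. Tmem45b, B3galt2, Prr32 and A530053G22Rik were 16.4-fold, 16.6-fold, 17.1-fold and 28.0-fold above muscle.

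Arxes1 and Arxes2, adipocyte-related genes, share all 250 bases before their annotated starts. Whether their probe sets tell the transcripts of the 2 genes apart was not tested. Their differences from the mean were 4.30 and 5.28. All 20 genes were also called in the 9 pools of the other cohorts, where 7.43% of probe sets were called higher and 6.52% lower.

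Among 17 measured genes for secreted factors, 9 were higher in adipose and 1 was lower, with a median difference of 1.05. Retn, the gene for resistin, had 14.17, 14.09 and 14.10 in adipose against means of 6.90 in liver and 10.62 in muscle. Fgf10, a growth factor for preadipocytes, was 27.9-fold higher than in liver and 11.7-fold higher than in muscle. Rarres2, which encodes chemerin, was called against the mean (1.05, and 0.95 without a call after median centring) and muscle (2.24), but had 12.89, 12.88 and 12.85 in adipose and 12.99, 13.03 and 13.03 in liver. Here the liver arrays lay just above the adipose arrays. Agt, the angiotensin precursor, was at 12.17 in adipose, 13.03 in liver and 9.59 in muscle, with a call against muscle alone. Serpina12, which encodes vaspin, was the member called lower, at 5.22 in adipose and 8.44 in liver, and its adipose arrays lay under the dim mark.

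The lipid droplet genes split by paralog. Plin1, the perilipin that coats adipocyte droplets and gates lipase access, had 13.43, 13.51 and 13.41 in adipose, 7.23, 7.18 and 7.01 in liver and 9.74, 9.77 and 9.69 in muscle, a difference of 5.01 ± 0.05 (SE) from the mean. Plin4, another perilipin, was 48.0-fold higher than in liver and 4.20-fold higher than in muscle. Plin2 was called against muscle alone (1.69), Plin3 differed by 0.05 from the mean and Plin5 was lower by the call, at -1.02, though not without the third adipose array (-0.99) or the first liver (-0.98) or muscle array (-0.99). The CIDE proteins, which fuse droplets, went different ways: Cidec was higher at 5.23, Cideb was lower at -2.07, and Cidea, at 7.13 in adipose, had a difference of 0.97 that missed the 2-fold rule and lay between -0.10 and -0.01 in the other 3 cohorts. Over the 17 droplet genes, 9 were higher and 3 lower, with a median of 1.21. Cav1, a coat protein of caveolae that is abundant in adipocytes, had 14.24 on all 3 adipose arrays and means of 8.52 in liver and 12.76 in muscle. Fitm1, an endoplasmic reticulum protein that promotes droplet formation, was the gene with the largest deficit ranked against both tissues.

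C/EBP alpha, a factor that drives adipocyte genes, recognises TTGCGCAA. Of 4 genes high in fat whose promoters were searched, Lep and Plin1 are shown because theirs held a match; that of Adipoq held none, and of the 2 annotated starts of Cidec 1 held a match and 1 did not. The sequences are the 250 bases before the annotated start, read 5′ to 3′ on the gene's strand, from RefSeq (GRCm38.p6). Lep lies at chr6:29059971-29060220 on the plus strand and Plin1 at chr7:79732777-79733026 on the minus strand. Capitals mark matches to TTNNGCAA on either strand, a looser form that includes TTGCGCAA.
Lep: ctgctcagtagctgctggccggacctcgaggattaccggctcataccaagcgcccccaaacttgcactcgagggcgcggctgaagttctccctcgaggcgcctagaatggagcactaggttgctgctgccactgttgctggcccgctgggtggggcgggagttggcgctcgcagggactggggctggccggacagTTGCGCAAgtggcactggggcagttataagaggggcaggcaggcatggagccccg
Plin1: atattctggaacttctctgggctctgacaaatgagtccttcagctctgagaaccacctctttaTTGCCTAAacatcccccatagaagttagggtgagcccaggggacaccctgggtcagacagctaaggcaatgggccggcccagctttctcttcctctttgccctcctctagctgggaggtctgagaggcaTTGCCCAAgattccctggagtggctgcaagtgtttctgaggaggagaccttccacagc

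In Lep the match was the full TTGCGCAA, beginning 55 bases before the start, and in Plin1 the matches began 187 and 58 bases before it. These matches were counted by gene, so that a gene with several starts counted once if any of them matched. The full motif was found for 0.185% of the 27025 genes with an annotated promoter. The looser form was in 10.8% of all promoters. Of the genes with a promoter, it was found for 74 of the 544 higher than both tissues (13.6%) and 23 of the 152 lower than both (15.1%). Such a match describes letters in this window and is not a measured binding site.

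Of 15 measured genes of lipolysis and its control, 14 were higher in adipose and none was lower, with a median of 2.06. Pnpla2, the lipase of the first step, had 13.53, 13.36 and 13.46 in adipose against means of 10.89 in liver and 12.13 in muscle. Lipe, hormone-sensitive lipase, had means of 13.16, 9.23 and 10.30 in adipose, liver and muscle, and Mgll, the monoglyceride lipase, had 12.45, 10.68 and 10.10. All 3 lipases were called against both tissues. Aqp7, the channel through which adipocytes release glycerol, was 74.3-fold higher than in liver and 3.33-fold higher than in muscle. Its liver counterpart Aqp9 was lower at -2.41. The member not called was Ces1f, a carboxylesterase, at 11.10 in adipose, 12.97 in liver and 7.25 in muscle.

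By median, the lipid synthesis genes lay closer to liver than to muscle. Of 28 measured genes, 15 were higher than the mean and 1 was lower (median 1.26). The median difference was 2.37 from muscle, with 20 higher and 1 lower, and 0.21 from liver, with 7 higher and 6 lower. Fasn, fatty acid synthase, had 13.93, 13.83 and 13.84 in adipose, 12.76, 12.90 and 12.85 in liver and 10.63, 10.57 and 10.53 in muscle, so that the 3 tissues formed 3 separate levels. Acaca, the cytosolic acetyl-CoA carboxylase, was 2.61-fold higher than in liver and 8.06-fold higher than in muscle. Its paralog Acacb, which acts at the mitochondrion, was lower than in muscle (-1.23). Acly, which makes cytosolic acetyl-CoA, had means of 11.25 in adipose, 11.42 in liver and 8.76 in muscle.

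Within the same pathway some enzymes were higher in adipose than in both other tissues. Fads3, a fatty acid desaturase family member, was 30.2-fold higher than in liver and 11.3-fold higher than in muscle. Mogat1, a monoacylglycerol acyltransferase, was 10.7-fold and 16.7-fold higher. Scd2, a stearoyl-CoA desaturase, was 20.0-fold and 3.22-fold higher, while Scd1, its paralog, was at 14.66, 14.43 and 13.35 in adipose, liver and muscle and was called against muscle alone. Dgat1, an enzyme of the last step of triglyceride synthesis, was called against both tissues and Dgat2, the other, against muscle alone. Agpat2, an acyltransferase whose loss causes lipodystrophy, had a difference of 3.21 from muscle and of 0.58 from liver. Pck1, which supplies glycerol phosphate in fat and glucose in liver, stood at 12.99 and 13.18 in those tissues and at 8.51 in muscle. The member called lower was Mlxipl, which encodes the carbohydrate-responsive factor ChREBP, at -1.08; it was not called over the 12 pools (-0.92) or in the 9 of the other cohorts (-0.87).

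NADPH for this synthesis is made by the pentose phosphate pathway and by malic enzyme. Pgd, of the pathway's oxidative arm, and Tkt, transketolase, were called against both tissues, at 2.09 and 2.18 from the mean, and were 2 of the 7 measured genes of this list; none was called lower (median 0.84). Me1, the cytosolic malic enzyme, was not called, with 12.28 in adipose, 11.75 in liver and 11.60 in muscle.

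Fatty acid uptake gave 7 of 14 genes higher (50.0%) and 2 lower (14.3%), beside 6.96% and 6.03% of all genes (median 1.05). Lpl, the lipase that frees fatty acids from lipoproteins, had 14.19, 14.19 and 14.21 in adipose, 8.58, 8.43 and 8.74 in liver and 12.51, 12.45 and 12.55 in muscle. The 3 tissues did not overlap. Cd36, a fatty acid transporter, was 11.2-fold higher than in liver and 2.60-fold higher than in muscle, and Gpihbp1, which holds lipoprotein lipase on capillaries, was called against liver (1.52) and not against muscle (0.81). Angptl4, an inhibitor of lipoprotein lipase, was 2.08-fold and 12.5-fold higher.

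The paralogs of these families divided among the tissues. Of 6 fatty acid binding proteins, Fabp4 (3.82) and Fabp5 (1.40) were higher in adipose. Fabp1, Fabp2 and Fabp7 were lower than in liver, by 144-fold for Fabp1, and Fabp3 was 65.5-fold lower than in muscle. Of 6 fatty acid transport proteins, Slc27a1 was higher (1.85), Slc27a2 and Slc27a5, the liver members, were lower (-3.07 and -3.53), and Slc27a3, Slc27a4 and Slc27a6 differed from the mean by between -0.04 and 0.19. Pparg was higher, Ppara lower at -2.13, and Ppard had a difference of 0.24. Of 3 measured acyl-CoA synthetases, none was higher and Acsl6 was lower at -1.30.

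Of 23 transcription factors of adipocyte development, 6 were higher (26.1%, beside 6.96% of all genes) and 1, Mlxipl, was lower, with a median of 0.29. Pparg, the master regulator of adipocyte differentiation, had 12.57, 12.53 and 12.50 in adipose, 9.50, 9.46 and 9.52 in liver and 9.34, 9.39 and 9.43 in muscle. It was 8.21-fold higher than in liver and 8.86-fold higher than in muscle, and liver and muscle were close. Cebpa, its partner, had 11.81, 11.76 and 11.85 in adipose and 11.82, 11.84 and 11.78 in liver, and the 2 groups overlapped; muscle lay at 8.70, 8.42 and 8.55. Ebf1, an early B cell factor that also acts in adipocytes, was closer to muscle, with 12.01 in adipose, 6.33 in liver and 10.59 in muscle. Ebf2 was called against liver (3.64) and not against muscle (0.72). Tle3, a corepressor that can aid PPAR gamma, was called against both, at 1.71 and 1.74.

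For insulin signalling and glucose entry, 6 of 20 genes were higher and 2 lower (median 0.53). Neither the receptor nor its substrate differed by 2-fold: Insr, the insulin receptor, stood at 11.24, 11.49 and 10.99 in adipose, liver and muscle and Irs1, its main substrate in fat and muscle, at 9.97, 9.51 and 10.41. Slc2a4, which encodes the insulin-regulated transporter GLUT4, had 10.63, 10.61 and 10.62 in adipose, 7.02, 7.23 and 6.87 in liver and 12.59, 12.59 and 12.58 in muscle. Adipose was 12.0-fold higher than liver and 3.90-fold lower than muscle. Hk2, hexokinase 2, was ordered in the same way, at 9.83, 6.87 and 11.40. The genes above both tissues were Trarg1, a regulator of GLUT4 trafficking (60.9-fold and 14.5-fold), Irs3, an insulin receptor substrate (9.03-fold and 6.20-fold), Pde3b, the phosphodiesterase by which insulin restrains lipolysis (2.69-fold and 18.6-fold), and Pik3r1, a regulatory subunit of phosphoinositide 3-kinase (2.23-fold and 2.62-fold). The call of Pik3r1 was not made in the 9 pools of the other cohorts.

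The share of brown and beige fat genes called higher was near that of all genes. Of 20, 1 was higher (5.0%, beside 6.96% of all genes). Of the same 20, 3 were lower, beside 6.03% of all genes, and the median was -0.06. Ucp1, the uncoupling protein of brown fat, had 5.66, 5.50 and 5.80 in adipose, 5.51, 5.60 and 5.51 in liver and 5.46, 5.81 and 5.37 in muscle. All 9 values overlapped and lay under the dim marks. Ppargc1a, a coactivator of mitochondrial genes, had means of 8.47, 9.27 and 11.46 in adipose, liver and muscle and was lower by the call. Slc36a2, an amino acid transporter, was the 1 higher gene, 14.7-fold above liver and 5.77-fold above muscle. Prdm16, a regulator of brown fat identity, was at 7.37, 7.10 and 7.60.

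Of 17 depot and positional genes, 6 were higher (35.3%) and 2 lower (11.8%), beside 6.96% and 6.03% of all genes (median 0.43). Wt1, which marks visceral fat and mesothelium, had 9.42, 9.43 and 9.14 in adipose, 7.12, 7.66 and 7.49 in liver and 7.06, 7.13 and 6.95 in muscle. Its adipose arrays lay above every other array. Tbx15 and Hoxc10, 2 positional factors that other work places in subcutaneous fat, were at 5.05 and 5.89 in adipose, under the dim mark, and at 11.48 and 10.35 in muscle. Hoxc6 was 10.9-fold higher than in liver and 3.84-fold higher than in muscle, and Hoxa5 was called against liver (1.75) and not against muscle (0.69).

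Mesothelial markers had the highest median of the marker lists other than adipocytes. Of 15 markers of this cell layer, 13 were higher in adipose and none was lower, with a median of 2.49. Msln, the gene for mesothelin, had 9.38, 9.35 and 9.37 in adipose against means of 6.98 in liver and 6.79 in muscle. Lrrn4, a leucine-rich repeat protein, was 13.4-fold higher than in liver and 21.6-fold higher than in muscle. Upk3b had 11.93, 11.74 and 11.82 in adipose, 7.58, 7.56 and 7.78 in liver and 6.49, 6.82 and 6.80 in muscle. The markers not called were Krt8 and Krt18, keratins that hepatocytes also make, at 9.35 and 8.75 in adipose and 12.43 and 11.87 in liver.

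Stromal genes lay closer to muscle than to liver by median. Of 44 matrix genes, 27 were higher than the mean and none was lower (median 1.27), with 36 higher against liver and 11 against muscle. Col3a1, a fibrillar collagen chain, had 10.44, 10.38 and 10.41 in adipose and means of 8.04 in liver and 9.80 in muscle. Sparc, a collagen-binding protein, and Nid1 and Lama4, of basement membranes, were called against both tissues, at 2.29, 2.57 and 2.74 from the mean. Of 19 progenitor and fibroblast markers, 8 were higher and none was lower. Their median difference was 1.68 from liver and 0.03 from muscle. Cd34, found on progenitors and endothelium, had 11.56, 11.61 and 11.63 in adipose and 11.55, 11.53 and 11.63 in muscle, which overlapped, and 6.68, 6.92 and 6.99 in liver. Pdgfra, a receptor that marks adipose progenitors, was at 9.86, 7.84 and 10.09.

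Endothelial markers gave 10 of 26 higher (38.5%) and 1 lower (3.85%), beside 6.96% and 6.03% of all genes. After median centring 7 were higher. Only Cldn5, a tight junction protein, was called above both tissues, and Cdh5, an endothelial cadherin, had 12.20 in adipose, 10.39 in liver and 11.87 in muscle. The lower gene was Prox1, the lymphatic factor that hepatocytes and muscle also express, at 6.31, 10.71 and 7.63. Of 13 smooth muscle and pericyte markers, 2 were higher (15.4%, beside 6.96% of all genes). These were Mcam, above both tissues (3.24 from the mean), and Acta2, smooth muscle actin, above liver alone.

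Macrophage markers gave 18 of 33 higher (54.5%) and 2 lower (6.06%), with a median of 1.12. Over all genes the shares were 6.96% and 6.03%, so the share called lower was near that of all genes. Retnla, a resistin-like secreted protein of alternatively activated macrophages, had 13.26, 13.27 and 13.33 in adipose, 5.42, 5.30 and 5.25 in liver and 11.31, 11.33 and 11.34 in muscle. It was 249-fold higher than in liver and 3.89-fold higher than in muscle. Cd68, a lysosomal protein of macrophages, was 2.55-fold and 2.68-fold higher. F13a1 and Clec10a, which mark resident macrophages, were called against both tissues. The 2 lower genes, Clec4f and Vsig4, are markers of liver Kupffer cells, at 6.44 and 7.96 in adipose and 10.25 and 11.72 in liver. Vsig4 was not lower in every cohort: its difference was -1.17 and -1.24 in the young and 1.35 and 1.68 in the 24-month cohorts, larger at 24 months by 2.72 ± 0.22 (SE; limma adjusted p = 5.96e-04).

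The lymphocyte and granulocyte markers gave 1 or 2 calls a list, all of them higher, beside 6.96% higher over all genes. T and NK cell markers gave 2 of 15 (13.3%; Nkg7 and Il7r, at 0.98 and 0.92 and so not called after median centring), B and plasma cell markers 2 of 11 (18.2%; Jchain and Cd79b), and neutrophil and mast cell markers 1 of 13 (7.69%), Cpa3, a mast cell protease at 8.85 in adipose, 5.14 in liver and 9.71 in muscle. Cd3e, part of the T cell receptor complex, was at 7.89, 7.56 and 7.11 and was not called.

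**Figure D3:**
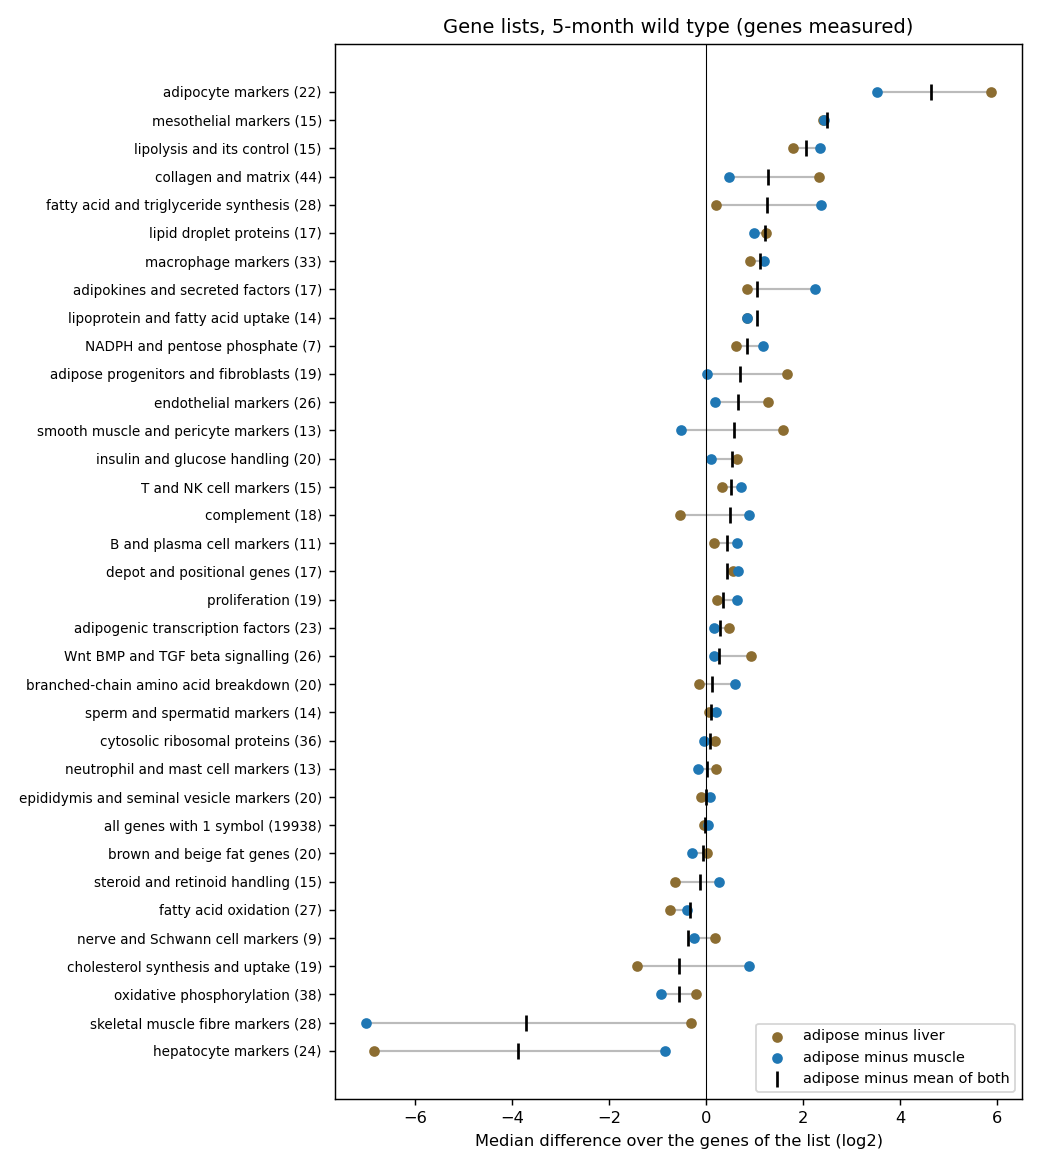
Median difference of each of 34 gene lists and of all genes (log2, horizontal axis) in 5-month wild type mice: bars mark adipose minus the mean of both tissues, points adipose minus liver and adipose minus muscle. List sizes are in brackets. Adipocyte markers have the largest median against the mean at 4.64 and hepatocyte markers the smallest at -3.87; the median of all genes is -0.02.

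Signalling ligands of the Wnt, BMP and TGF beta families and their antagonists gave 10 of 26 genes higher (38.5%) and 1 lower (3.85%). The median was 0.28, and the shares of all genes were 6.96% and 6.03%. Sfrp5, a secreted Wnt antagonist, was 23.7-fold higher than in liver and 3.12-fold higher than in muscle. Chrdl1, a BMP antagonist, was 34.3-fold and 6.34-fold higher. The activin subunits differed, with Inhbb higher (1.63) and Inhba lower (-1.18). Among 18 complement genes, 3 were higher (16.7%) and 5 lower (27.8%), beside 6.96% and 6.03% of all genes. C2 and C4b, of the classical pathway, were above muscle by 3.05 and 2.89 and were not called against liver (0.22 and -0.41). C7 was above liver by 4.02 and was not called against muscle (-0.06). C9 and Hc, of the membrane attack complex, were 214-fold and 174-fold lower than in liver.

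The 10 genes with the largest deficit against both tissues were Fitm1, Hjv, Slc38a4, Abcb4, Got1, Tlcd4, Mreg, Bdh1, Ociad2 and Slc38a3. Fitm1 had 6.64, 6.90 and 6.50 in adipose, 11.64, 11.59 and 11.66 in liver and 13.03, 13.03 and 13.01 in muscle. Hjv, hemojuvelin of the iron-sensing pathway, was 28.8-fold lower than in liver and 125-fold lower than in muscle. Slc38a4, an amino acid transporter, was 102-fold and 23.3-fold lower, and Slc38a3, a glutamine transporter, had a difference of -4.64 from the mean. Got1, the cytosolic aspartate aminotransferase, had 9.00, 8.81 and 8.90 in adipose against means of 12.92 and 13.30. Bdh1, a ketone body dehydrogenase, and Abcb4, a phospholipid transporter of bile, had differences of -4.23 and -4.50 from the mean. In 8 of the 10 the adipose mean lay between 6 and 7, near the dim mark of 6.22. All 10 were also called in the 9 pools of the other cohorts.

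Transcripts of oxidative phosphorylation were lower by degrees rather than by large steps. Of 38 genes of this list, none was higher and 2 were lower by the call (5.26%, beside 6.03% of all genes). On the adjusted p alone 36 were lower and 1 was higher, and the median was -0.56. Against muscle the median was -0.93 with 17 lower and none higher, and against liver it was -0.21 with none lower and 1 higher. Uqcrfs1, the Rieske protein of complex III, had 9.29, 9.29 and 9.31 in adipose and means of 10.12 in liver and 10.82 in muscle. Atp5d, a subunit of ATP synthase, had 12.18, 13.16 and 13.53. Of 27 genes of fatty acid oxidation, none was higher and 4 were lower (median -0.32, lowest member -2.13). On the adjusted p alone 5 were higher and 19 lower. Against liver 3 were higher and 11 lower (median -0.73), and against muscle 3 were higher and 3 lower (median -0.39). Cpt1a, the entry enzyme of the pathway in liver, was 2.96-fold lower than in liver and 2.31-fold higher than in muscle.

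Sterol synthesis ran between the other tissues. Of 19 genes, none was higher and 6 were lower than the mean, with 4 higher and 12 lower on the adjusted p alone. Against liver 13 were lower and none was higher (median -1.42), and against muscle 8 were higher and none was lower (median 0.89). Sqle, squalene epoxidase, had 7.99, 8.15 and 7.96 in adipose and means of 10.48 in liver and 7.01 in muscle. Branched-chain amino acid breakdown gave 1 of 20 higher, Bcat2, the mitochondrial aminotransferase (1.27), and 1 lower, Ppm1k, the phosphatase that activates the pathway's dehydrogenase (-1.37). These shares (5.0% each way) were near those of all genes (6.96% and 6.03%), and Bcat2 was not called in the 9 other pools (0.91).

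Steroid and retinoid handling gave 1 of 15 higher, Aldh1a7 (1.89), and 1 lower, Akr1c14 (6.67% each way, also near the shares of all genes). Aldh1a7 was not called over the 12 pools (0.99) or in the 9 other pools (0.69), and its contrast was -0.50 in 24-month wild type mice. Hsd11b1, which regenerates active glucocorticoid in fat and liver, was lower than in liver (-1.69) and higher than in muscle (1.63). Of 19 proliferation genes, Mki67 and Top2a were higher (1.34 and 1.01) and none was lower. The share of higher genes was 10.5%, not far from 6.96% of all genes. Top2a was not called after median centring (0.90), and neither gene was called in the other 9 pools.

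Ribosomal protein genes gave 0 of 36 calls in either direction; on the adjusted p alone 18 were higher and 8 lower. Of 9 nerve and Schwann cell markers 2 were higher (22.2%, beside 6.96% of all genes) and none was lower (median -0.37). The higher ones were Scn7a, a sodium channel, 102-fold above liver and 4.88-fold above muscle, and Pmp22, a myelin protein, above liver alone.

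Markers of the other tissues were also read in adipose. Of 24 hepatocyte markers 21 were lower than the mean and 3 were higher, namely Hp (1.90), Cyp2e1 (1.24) and Trf (1.03, and 0.92 without a call after median centring). Of these only Hp was also called in the pools; Cyp2e1 and Trf stood at 0.90 and 0.82 over the 12 pools and at 0.79 and 0.75 in the 9 pools of the other cohorts. Alb, the gene for albumin, was at 9.93 in adipose and 10.94 in muscle beside 14.76 in liver, and in the other 3 adipose pools it was at 11.30 to 11.72. The median difference of the hepatocyte markers was -3.87 in this cohort. It was -2.10, -2.09 and -2.62 in the 24-month wild type, 5-month Myc+/- and 24-month Myc+/- cohorts. With young wild type first and the same order, their median level was 6.89, 8.00, 8.28 and 8.06 in adipose. In muscle it was 7.93, 6.32, 6.81 and 7.16. All 28 muscle fibre markers were lower (median -3.71, and -3.99, -3.67 and -3.69 in the other cohorts). Against liver alone, 2 of the 28 were called higher in adipose and 3 lower, with a median of -0.31. The 2 higher were Acta1 and Myl1, a muscle actin and a myosin light chain, at 9.55 and 9.89 in adipose and 8.48 and 7.91 in liver. Ckm, muscle creatine kinase, was at 7.61 in adipose and 8.55 in liver. The part of liver or muscle RNA in the adipose pool, or of liver RNA in the muscle pool, was not tested. Of 20 markers of epididymis and seminal vesicle, 2 were higher, Sult1e1 and Adgrg2, and none was lower (median -0.00). Their share of higher genes was not far from the 6.96% of all genes. Lcn5, a defining gene of epididymis, was at 5.97 in adipose, 6.01 in liver and 5.91 in muscle. None of 14 sperm markers was called in either direction (4 were higher and 1 lower on the adjusted p alone), and Prm1, a sperm chromatin protein, was at 7.47, 7.07 and 6.82. In the 9 pools of the other cohorts, 4 of the 14 were called higher and none lower. The adipose median of the 14 was 5.83 in young wild type mice. It was 6.49 in 24-month wild type, 5.87 in 5-month Myc+/- and 7.60 in 24-month Myc+/- mice.

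Among 302 microRNA genes on the array, 6 were higher in adipose (1.99%) and 5 lower, beside 6.96% and 6.03% of all genes. Calls were thus rarer than over all genes, and 181 of the 302 lay at or under the dim marks in all 3 tissues. The probe sets read the hairpin or its longer transcript, not the mature microRNA. The mature sequences of the called genes below are given because their seed, bases 2 to 8 in capitals, sets which messages they pair with; sequences are from RefSeq (GRCm38.p6).
miR-181b-5p: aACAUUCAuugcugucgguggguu
miR-708-5p: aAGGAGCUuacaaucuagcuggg
miR-186-5p: cAAAGAAUucuccuuuugggcu
miR-26a-5p: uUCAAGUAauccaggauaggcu
let-7c-5p: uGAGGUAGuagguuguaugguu

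The same miR-181b-5p is made from 2 loci, at chr1:137966650-137966673 and chr2:38853845-38853868. Against the mean the loci were called in opposite directions. Mir181b-1, on chromosome 1, had 7.68, 7.67 and 7.87 in adipose, 4.75, 4.28 and 4.99 in liver and 5.18, 5.51 and 5.55 in muscle. Mir181b-2, on chromosome 2, had 5.72, 5.48 and 5.90 in adipose, 5.91, 5.65 and 6.20 in liver and 7.71, 7.85 and 7.56 in muscle. The first was above the dim mark in adipose alone and the second in muscle alone. For the second the adipose and liver arrays overlapped, so its lower call came from the muscle arrays. The 5 sequences have 5 different seeds. Mir708 and Mir186 were the other microRNA genes called above both tissues, at 1.42 and 1.30 from the mean. Mir26a-1 (1.10, and 0.99 without a call after median centring) and Mirlet7c-1 (1.34) were called against the mean and 1 of the tissues. The adipose arrays of Mir186, at 6.42, 7.07 and 7.40, were widely spread.

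The same contrast was then read in the other cohorts. With each of the 12 pools as 1 sample and cohort as a term, 1574 probe sets were higher (7.22%) and 1375 lower (6.31%). In the 9 pools of the other cohorts alone, 1112 of the 1387 higher genes (80.2%) were called higher and 1 had the opposite sign, and 1044 of the 1202 lower genes (86.9%) were called lower and 4 had the opposite sign. Of 173 named genes called against the mean, 17 were not called in these 9 pools. Besides those given above, they included Alb (-2.92 in young wild type mice, -0.72 in the 9 pools), Pck1 (2.14 and 1.03), Uqcrfs1 (-1.17 and -0.86), Cdh5 (1.07 and 0.99) and Mir181b-2 (-1.11 and -0.98). Of the 720 genes above both tissues, 638 (88.6%) were called and none had the opposite sign. Across genes, which are not independent replicates, the contrast of young wild type mice correlated at 0.966 with that of young Myc+/- mice, at 0.880 with that of 24-month wild type mice and at 0.885 with that of 24-month Myc+/- mice.

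**Figure D4:**
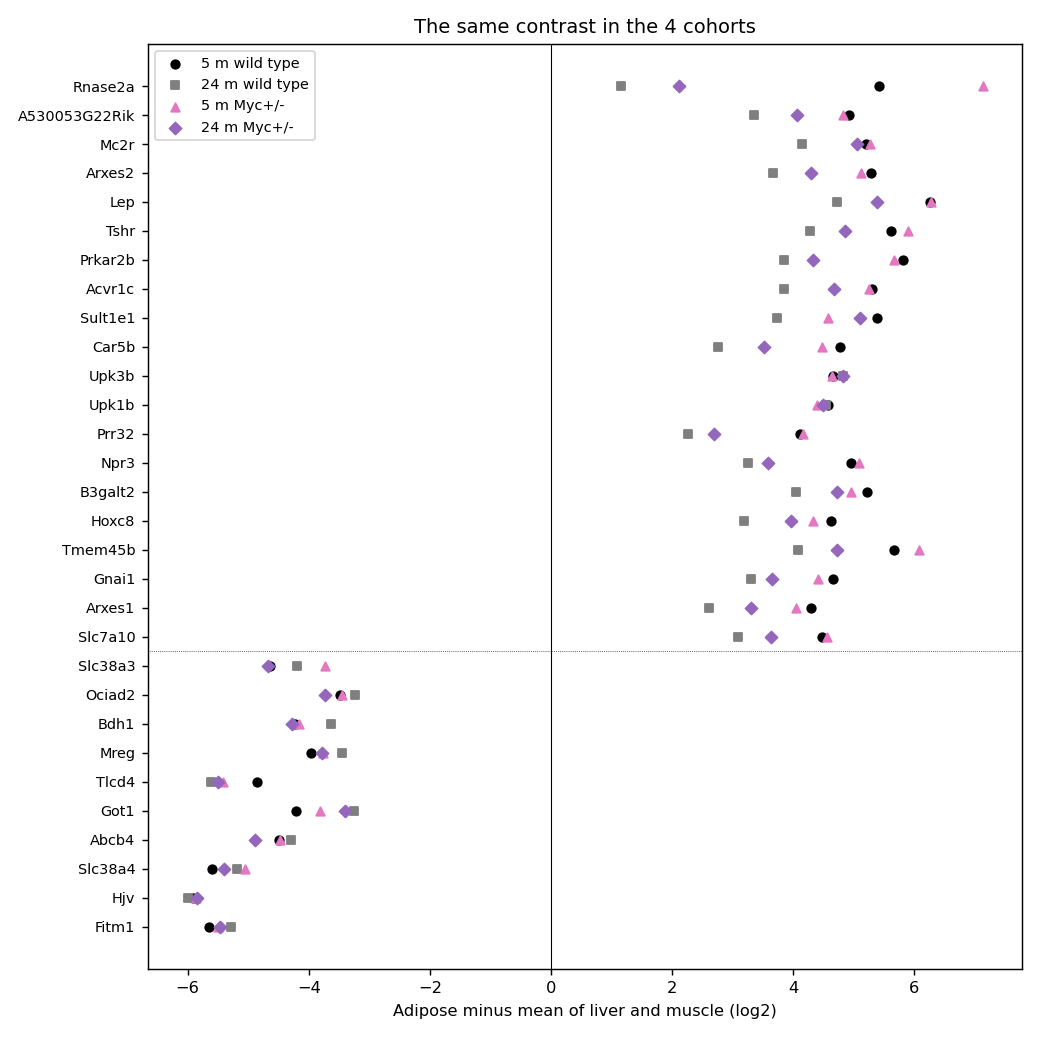
Adipose minus the mean of liver and muscle (log2, horizontal axis) in each of the 4 cohorts for the 20 genes with the largest excess and the 10 with the largest deficit against both tissues, 1 symbol per cohort. Every symbol lies on the same side of 0 as in young wild type mice; Rnase2a has the widest range, from 1.16 to 7.13, and Upk1b stays between 4.40 and 4.57.

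A test of age within the pool fit, with the adjusted p alone, called 5245 probe sets (24.1%). Of the 1387 genes higher in young wild type adipose, 535 (38.6%) had a smaller contrast at 24 months and 128 (9.23%) a larger one. Over all genes the shares were 14.5% smaller and 8.63% larger, so the share with a larger contrast was near that of all genes. Since the 1387 genes, and the 20 named first among them, were picked in 1 of the young cohorts, their counts by age are a description. Among the 20 genes named first, 11 passed, all with a smaller contrast at 24 months. In 18 of the 20, muscle was higher at 24 months than at 5 months in both genotypes. This held for 6802 of all 19938 genes. The exceptions among the 20 were Upk3b in wild type and Arxes1 in Myc+/- mice. The median change in muscle over the 20 was 1.67 in wild type and 0.53 in Myc+/- mice, beside -0.04 and -0.01 over all genes. Adipose moved by medians of -0.57 and -0.43 over the 20, beside -0.03 in each genotype over all genes. For the 22 adipocyte markers the muscle median was 9.63 in the young and 11.23 in the old wild type pool, and 9.39 and 10.18 in the Myc+/- pools. Adipoq in muscle was at 10.29, 12.33, 10.34 and 11.14 in young wild type, old wild type, young Myc+/- and old Myc+/- mice.

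**Figure D5:**
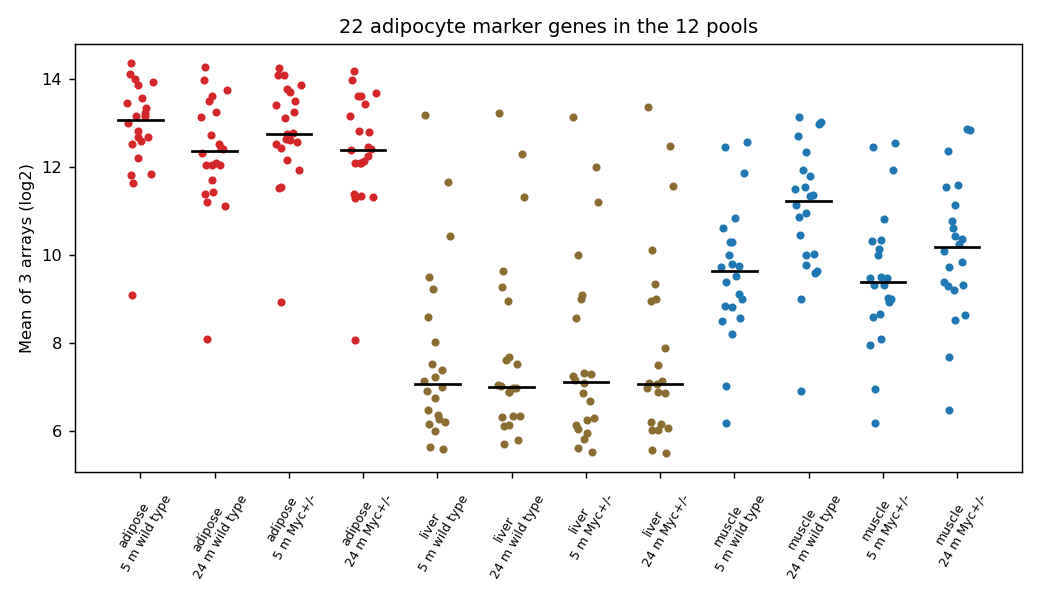
Mean of 3 arrays (log2, vertical axis) of the 22 adipocyte markers in each of the 12 pools, by tissue and cohort, 1 point per gene, with the median as a line. The muscle median is higher at 24 months than at 5 months in both genotypes (11.23 against 9.63 in wild type, 10.18 against 9.39 in Myc+/-), the adipose median is lower, and the liver median stays between 7.00 and 7.12.

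Single genes showed which tissue moved. Rnase2a had adipose levels of 10.56 and 12.27 in the young wild type and young Myc+/- pools and of 6.75 and 7.67 in the old ones, so most of the change was in adipose. Snora74a and Rps29, a small nucleolar RNA and a ribosomal protein gene, had larger contrasts at 24 months (by 3.30 and 1.77). In wild type muscle, Snora74a was at 12.29 at 5 months and 10.22 at 24 months, and in adipose it was at 11.95 and 12.64, so most of that change was outside fat. Lpl in wild type liver was at 8.58 at 5 months and 10.38 at 24 months. Jchain, a component of secreted antibody, was at 8.10 in young and 11.43 in old wild type adipose and at 8.74 and 12.00 in Myc+/- adipose, with contrasts larger by 1.60 ± 0.09 (SE; limma adjusted p = 2.58e-04).

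By genotype, 1 probe set passed (0.00459%; 1527 had an unadjusted limma p under 0.05). It was Fam183b, whose contrast was 3.10 and 3.13 in the wild type cohorts and 1.12 and 0.60 in the Myc+/- cohorts (limma adjusted p = 0.0416). Its adipose levels were 8.97 and 8.90 in wild type and 7.16 and 6.50 in Myc+/- pools. Myc itself had 9.66, 9.88 and 9.56 in young wild type adipose, 8.61, 8.43 and 8.68 in liver and 9.00, 8.97 and 8.91 in muscle, above liver by the call (1.13) and not above muscle (0.74). In all 6 matched pairs of pools Myc was lower in the Myc+/- pool, by 0.24 to 0.83.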

How the data were processed

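The deposited table holds log2 signals made by the authors with RMA in Affymetrix Expression Console, per the submitters' processing notes (no version given there). Per the labels, tissue was disrupted in 2 ways, not assigned to samples, and 2 labelling kits are named, so which one applied is unsettled. Genes came from GEO's platform annotation: of 35556 probe sets 23410 were listed, 21789 with 1 symbol and 1621 with several, which were not named; 21698 matched RefSeq by Entrez ID. A gene was read from its probe set with the highest mean over the 9 arrays; 999 genes had several, and none was called in opposite directions by them.

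Linear models were fitted with limma 3.58.1 (R 4.3.3) over all 21789 probe sets: by tissue on the 9 arrays, and on the 12 pool means with tissue and cohort, or tissue by age and by genotype. P-values were adjusted by Benjamini-Hochberg, and the scripts were tested on simulated data. Named genes were the 20 higher and 10 lower than both tissues with the largest smaller difference, up to 4 higher and 2 lower members of each list, members marked in each list, the families, genes at the edge of the call, and 10 genes by age and by genotype; others (the microRNA genes, Myc, Krt8, Krt18, Ces1f, Myl1 and those of the closing observations) were picked after their values were seen. Members and the 34 lists were chosen with earlier results of these data known. Some list members were not matched and are not reported here. Alternatives were other scalings, probe rules, a filter, fold thresholds, a replicate block and leaving out arrays or cohorts.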

Additional observations from a re-analysis of the deposited data

Results flagged for a closer look

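The differences between adipose and the mean of the other tissues that changed with age, by the test of that change in the pool fit, are given here as the 24-month minus the 5-month contrast (log2, 4 cohorts with 1 pool per tissue each). Among the genes with the largest excess in adipose it fell for Rnase2a (-4.63), Prkar2b (-1.66), Prr32 (-1.66), Npr3 (-1.60), Car5b (-1.49), Tmem45b (-1.46), Lep (-1.21), Tshr (-1.20), Slc7a10 (-1.16), Gnai1 (-1.05) and Acvr1c (-1.02). Adipocyte marker levels in muscle, at medians of 9.63 and 11.23 in wild type mice of 5 and 24 months, moved in the same cohorts; their part in these changes was not tested. Of the genes lowest in adipose, Got1 changed by 0.68, toward a smaller deficit. Both sets of genes were ranked in the young wild type pools, which are also part of the 5-month side of this test. Such a choice can by itself favour smaller contrasts at 24 months, so these changes are a description.

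The 10 genes ranked first by age included Snora74a (3.30), Snord15b (2.83), Rps29 (1.77), Rps19 (1.53), Psmg4 (1.51) and Atp5l (1.30), with a value above 0, and Tmem43 (-1.64), Eif5a (-1.62) and Lpl (-1.43), below 0. In Rps19, Atp5l and Psmg4 the liver and muscle levels fell by more than the adipose level moved: Rps19 in wild type mice went from 10.75 to 9.54 in liver and from 11.03 to 9.76 in muscle, and from 10.72 to 11.06 in adipose. Other genes named for their genotype rank also changed with age: Mogat2 (-1.45), Acta2 (-1.02), Mal2 (-0.90), Lctl (-0.49), C6 (-0.37) and Gstm7 (-0.27). By genotype, Fam183b differed by -2.25 (Myc+/- minus wild type). Groups of 3 arrays were not tested for outlying samples.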

How the results depend on the processing

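Lowering the fold threshold to 1.5 moved every count of the tissue comparisons: against the mean to 3164 higher and 2412 lower, against liver to 4022 and 2520, against muscle to 3297 and 2706, against both to 1766 and 592, and over the 12 pools to 3191 and 2578. With the mean of all probe sets of a gene, the median of insulin and glucose handling was 0.58 and that of ribosomal proteins 0.06. A filter on dim probe sets left 13073 and 0 calls by genotype. The counts of these comparisons stayed within 1.5 times the reported ones under all the other alternatives run. Without 1 array, calls against the mean ran from 1467 to 1559 higher and 1301 to 1331 lower, against liver from 2235 to 2312 and 1496 to 1552, against muscle from 1496 to 1561 and 1471 to 1518, and against both from 753 to 800 and 214 to 226; without 1 cohort the pool fit gave 1528 to 1618 and 1341 to 1421. Median centring gave 46.0% of calls against the mean as higher (53.1% as deposited) and 44.0% over the pools (53.4%), and turned the sign of the medians of ribosomal, sperm and neutrophil and mast cell genes (the last from 0.02 to -0.08), for which no direction is given. Array numbers were shared between tissues but did not pair the arrays (correlations of -0.11 to 0.15 for the same number, -0.16 to 0.23 for others), and with a replicate block there were 1489 higher and 1315 lower. With 1 pool per tissue and cohort, mouse-to-mouse spread within a cohort was not measured.

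Of the 214 named genes, 12 turned sign under some alternative, nearly all at differences close to 0. After median centring, differences of the 9 arrays were -0.10 for Insr, -0.09 for Irs1 and Lcn5, -0.08 for Prdm16, -0.06 for Plin3 and -0.01 for Gpd1, and those of the pools -0.12 for Prdm16, -0.08 for Irs1, -0.04 for Ppard and -0.02 for Plin3 and Slc27a6. After centring on the 75th percentile they were -0.02 for Insr and Irs1 and -0.01 for Prdm16 and Lcn5. Insr was at -0.00 with the spread from all 36 arrays and 0.00 with the replicate block. Cidea was at -0.04 in the 9 pools of the other cohorts. Leaving out 1 array gave -0.02 to 0.02 for Insr, -0.01 to 0.03 for Irs1, 0.00 to 0.04 for Prdm16, -0.10 to 0.07 for Lcn5 and -0.09 to 0.02 for Slc27a4. Leaving out 1 cohort gave -0.04 to 0.13 for Irs1, -0.23 to 0.10 for Ucp1, -0.04 to 0.31 for Cidea, -0.02 to 0.02 for Prdm16 and -0.35 to 0.62 for Vsig4. A call was lost by 21 named genes and gained by 17 under some alternative.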

Other observations

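Genes of amino acid metabolism, picked after their values were seen, lay at both ends. Phgdh and Psat1, of serine synthesis, were higher than both tissues, with differences from the mean of 3.36 and 3.78. The transporters Slc1a5 (neutral amino acids) and Slc1a3 (glutamate and aspartate) were also higher, at 4.67 and 3.33. Slc7a2, a transporter of cationic amino acids, and Got2, the mitochondrial aspartate aminotransferase, were lower than both tissues, at -4.01 and -2.46. Mest and Plagl1, 2 imprinted genes, were higher by 3.72 and 3.58. So were Aoc3, an amine oxidase of adipocytes and vessels (5.04), Pnpla3, a lipid droplet hydrolase (4.08), Ptger3, a prostaglandin E receptor (3.16), and Adcy5, an adenylyl cyclase (3.08).

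Of the 1387 genes higher in adipose, 52 lay within 0.5 of the liver mean and 190 within 0.5 of the muscle mean. The genes named here were picked after their values were seen. Among those near liver, Hp, haptoglobin, was at 13.33 in adipose and 13.42 in liver, Serpina3n at 13.30 and 13.29, Lrg1 at 12.51 and 12.88, Cdo1, a cysteine dioxygenase, at 13.47 and 13.36, and Nnmt, a nicotinamide methyltransferase, at 12.03 in both. The calls of Lrg1 and Nnmt against the mean were not made in the 9 pools of the other cohorts (0.97 and 0.61). Sucnr1, the succinate receptor, was at 10.41 in adipose, 10.13 in liver and 5.54 in muscle. Among those near muscle, Aspn was at 10.94 in adipose, 11.02 in muscle and 4.90 in liver, Ogn at 11.83, 11.69 and 6.82, and Ccl11, an eosinophil chemokine, at 11.89, 11.99 and 7.72. Oxct1, the enzyme of ketone body use that hepatocytes lack, was at 10.42, 10.75 and 6.30.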
